A study of Mus musculus with 4 samples.

Results

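Other CD4 T cells are the CD4-positive T cells that carried no transcript of Foxp3, the factor of regulatory T cells, and none of Cxcr5, the chemokine receptor of follicular helper T cells. They were chosen by measured transcripts among ChAT-eGFP+ cells sorted from the stromal vascular fraction of mouse inguinal white fat. A cell entered when it had more than 200 and fewer than 5000 detected genes, under 7.5% mitochondrial UMIs (unique molecular identifiers, each a captured transcript), at least 1 Cd4 UMI and at least 2 UMIs over Cd3d, Cd3e and Cd3g. Foxp3, Cxcr5, Eomes, Cd79a, C1qa, Trdc and Top2a all had to be at 0. This left 1055 cells of the 21249 that passed the limits on genes and mitochondrial UMIs.

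The series holds 4 libraries of male ChATBAC-eGFP mice, each made from 4 pooled animals that were 5 weeks old at the start and lived for 3 weeks at thermoneutrality (30 °C). The 30C group stayed at 30 °C for a further 4 h and the 4C group spent 4 h at 4 °C, with 2 libraries each. The mice of the 4C group alone had first spent a day at room temperature, so that day and the cold cannot be told apart. All mice carried the reporter transgene, in which a bacterial artificial chromosome with the Chat locus drives eGFP, and the sort kept live eGFP+ cells. T cells without the reporter were therefore not sampled, and no library came from mice without it.

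Other CD4 T cells numbered 208 and 228 in 30C replicates 1 and 2, and 321 and 298 in 4C replicates 1 and 2. Their median depth was 5862, 5298.5, 6167 and 6138.5 UMIs per cell in that order, and their summed counts were 1358121, 1359948, 2292143 and 2022010 UMIs. Both 4C libraries thus had more cells and more UMIs per cell. Their median mitochondrial share was lower, at 3.88% and 4.09% against 4.67% and 4.61%. No cell barcode was shared between libraries among these cells. At the edge of the rule, 97, 110, 126 and 135 of the cells had exactly 1 Cd4 UMI, while 311, 364, 327 and 260 cells met every other term with no Cd4 UMI and stayed out.

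CD4 T cells read peptides on MHC class II through the T cell receptor and its CD3 chains, and they act mainly through the cytokines and surface ligands they make once activated. In fat they are mostly antigen-experienced cells that live beside macrophages and adipocytes. Some T cells express Chat, the enzyme that makes acetylcholine, and T cells carry the glucocorticoid receptor, through which a stress hormone acts on them.

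The label held for T cell genes. With every cell reduced to 3200 UMIs, which left out 7, 22, 10 and 10 shallower cells, a UMI of Cd3d, a chain of the receptor complex, was found in 93.5%, 94.7%, 95.8% and 93.8% of other CD4 T cells, listed as 30C replicates 1 and 2 and then 4C replicates 1 and 2. Trac, the constant region of the receptor's alpha chain, was found in 91.0%, 91.3%, 93.6% and 95.1%. Cd28, a costimulatory receptor, was found in 72.1%, 68.9%, 64.0% and 66.0%. Cd3d was used by the rule, whereas Trac and Cd28 were not. In B cells (Cd79a-positive cells without CD3 UMIs) at the same depth, Trac reached at most 2.42% and Cd28 at most 1.27% of cells. Leaving out cells with a CD3 UMI also leaves out droplets with free T cell RNA, so these B cell shares are a low measure of that background. Before the reduction the median depth of those B cells was 8050.5, 7971, 8484 and 8471.5 UMIs.

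**Figure D1:**
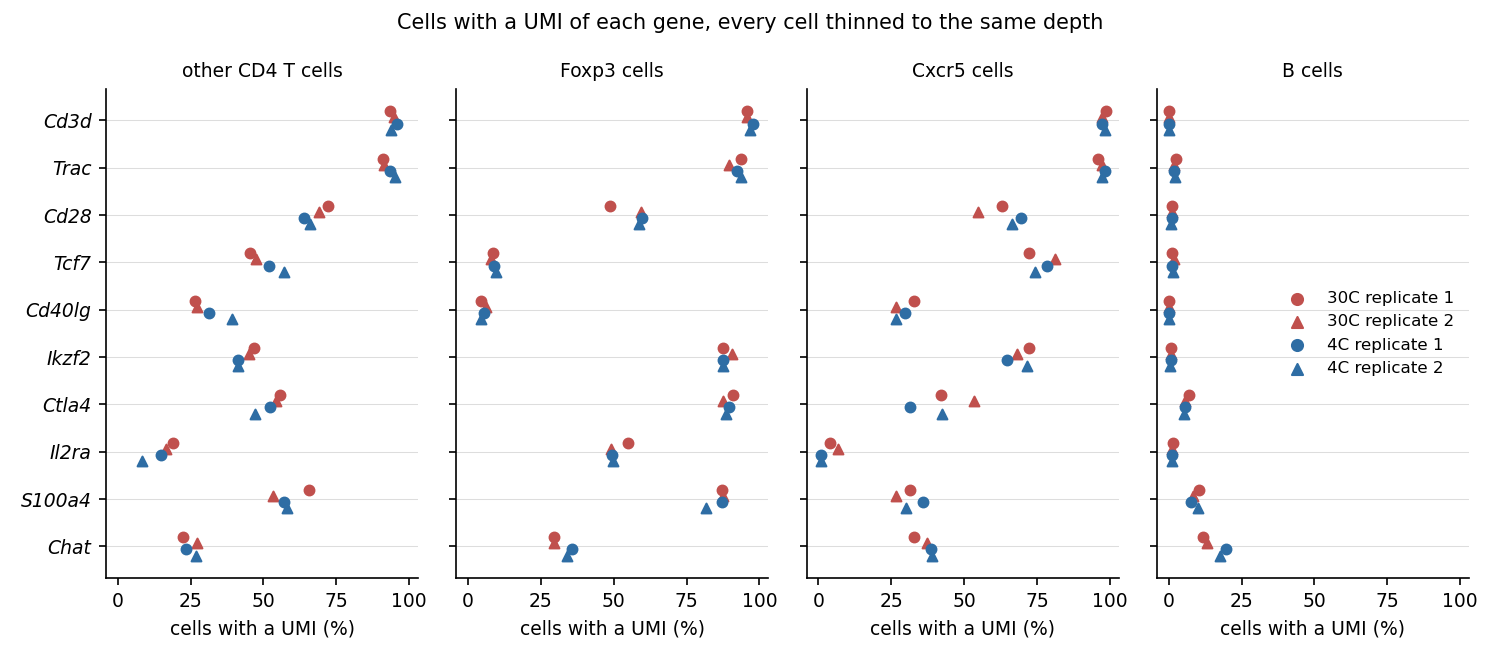
Percentage of cells with a UMI of 10 genes (x axis) in other CD4 T cells, Foxp3 cells, Cxcr5 cells and B cells, each point 1 library, with every cell reduced to 3200 UMIs. In other CD4 T cells Ikzf2 was found in 41.2% to 46.8% of cells, below all 4 libraries of Foxp3 cells, and Tcf7 in 45.3% to 56.9%, above them.

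The label did not exclude cells with other regulatory genes. Ikzf2, which encodes the factor Helios, was found at the fixed depth in 46.8%, 45.1%, 41.2% and 41.3% of other CD4 T cells, against 87.4%, 90.7%, 87.6% and 87.5% of Foxp3 cells and at most 0.776% of B cells. Foxp3 cells here are CD4 T cells with a Foxp3 UMI that met the rest of the rule. Il2ra, the high-affinity chain of the IL-2 receptor, was found in 18.9%, 16.5%, 14.8% and 8.33% of other CD4 T cells and in 54.7%, 49.1%, 49.2% and 49.8% of Foxp3 cells. Over all UMIs, only 85, 94, 140 and 127 of the cells had neither an Ikzf2 nor an Il2ra UMI. The groups are cut by 1 transcript, and of the Foxp3 cells themselves only 83.1%, 82.3%, 77.6% and 82.3% kept a Foxp3 UMI at the fixed depth. How many other CD4 T cells were Foxp3-expressing cells whose transcript was missed was not tested.

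Tcf7, a factor of naive and memory cells, was found in 45.3%, 47.6%, 51.8% and 56.9% of other CD4 T cells, in 7.96% to 9.65% of Foxp3 cells and in at most 1.68% of B cells. Cd40lg, the ligand by which helper T cells activate B cells and dendritic cells, was found in 26.4%, 27.2%, 31.2% and 39.2%, against 4.33% to 6.19% of Foxp3 cells and at most 0.0909% of B cells. S100a4, abundant in antigen-experienced T cells, was found in 65.7%, 53.4%, 56.9% and 58.0%, against 7.82% to 10.6% of B cells. Tcf7 and S100a4 divided the cells in part: S100a4 was found in 47.7% of the cells with a Tcf7 UMI and in 69.3% of those without, over the 1006 cells at the fixed depth, and it was lower in the Tcf7 cells of each library.

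Of the lineage factors, Gata3 was found in more of the cells than Tbx21. Gata3, the factor of type 2 helper cells that is also active in resting T cells, was found in 33.3%, 24.3%, 27.3% and 32.6% of other CD4 T cells and in at most 0.74% of B cells. Tbx21, the type 1 factor, was found in 2.43% to 4.51%. Izumo1r, the folate receptor 4 of regulatory and anergic T cells, was found in 52.8% to 59.2%, and Pdcd1, the inhibitory receptor PD-1, in 13.8% to 19.9% against 41.3% to 51.3% of Cxcr5 cells.

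Other CD4 T cells made up a larger share of the cells at 4C. The share of kept cells was 4.01% (95% Clopper-Pearson interval 3.49 to 4.58) and 4.23% (3.71 to 4.80) in the 30C libraries, and 6.03% (5.40 to 6.70) and 5.58% (4.98 to 6.22) in the 4C libraries. The intervals cover counting error only. The rule asked for a Cd4 UMI, and cells were deeper at 4C. The 311, 364, 327 and 260 cells that met every other term without a Cd4 UMI are not in these shares. No share was computed at a fixed depth, so the part of depth in the difference was not tested. The difference of the means was 1.68 percentage points and the libraries did not overlap, but 2 libraries against 2 cannot reach a p under 0.33, which is what the two-sided exact permutation test gave. Foxp3 cells had shares of 5.03% and 4.49% at 30C and of 6.38% and 5.91% at 4C. As a share of the CD4 T cells of the 3 groups (other, Foxp3 and Cxcr5), other CD4 T cells were 38.2%, 41.4%, 41.5% and 40.8%, and there the temperatures overlapped (exact permutation p = 0.67).

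In the cold, other CD4 T cells held less RNA of several genes of the glucocorticoid receptor list and more RNA of several cytokines. Fkbp5, Tsc22d3, Pik3ip1 and Txnip fell by 1.58 to 2.17 on the log2 scale, and the IL-7 receptor gene Il7r fell by 1.13. Ifng, Il2, Tnf and Ltb rose, as did the survival gene Bcl2l1. Chat did not pass the test. UMI counts were summed per library and compared by edgeR's quasi-likelihood test with Benjamini-Hochberg adjustment, and 111 of 8589 genes tested passed the threshold of 0.05 (1.29%), 34 higher (0.396%) and 77 lower (0.896%) at 4C.

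Levels are given in CPM, the UMI count of a gene relative to the library's summed UMIs over the genes tested, with TMM scaling. Among all genes tested, the median log2 fold change (4C over 30C) was -0.01, and 1083 had an unadjusted p under 0.05. For every gene past the threshold the 2 libraries of one temperature lay above the 2 of the other, as was so for 21.7% (higher) and 22.3% (lower) of all genes tested. Without TMM scaling the split of the calls was 52 higher and 65 lower, and with DESeq2 11 higher and 45 lower. When a 4C library was left out, the spread came from the 2 libraries at 30C alone and the lone 4C library was assumed to vary like them. Then 5 genes passed without 4C replicate 1 and 9 without 4C replicate 2, while folds such as those of Tsc22d3 (-1.91 and -1.45), Txnip (-1.71 and -1.46) and Il7r (-1.05 and -1.21) kept their direction. Without 30C replicate 1 or 2, 181 and 210 genes passed.

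**Figure D2:**
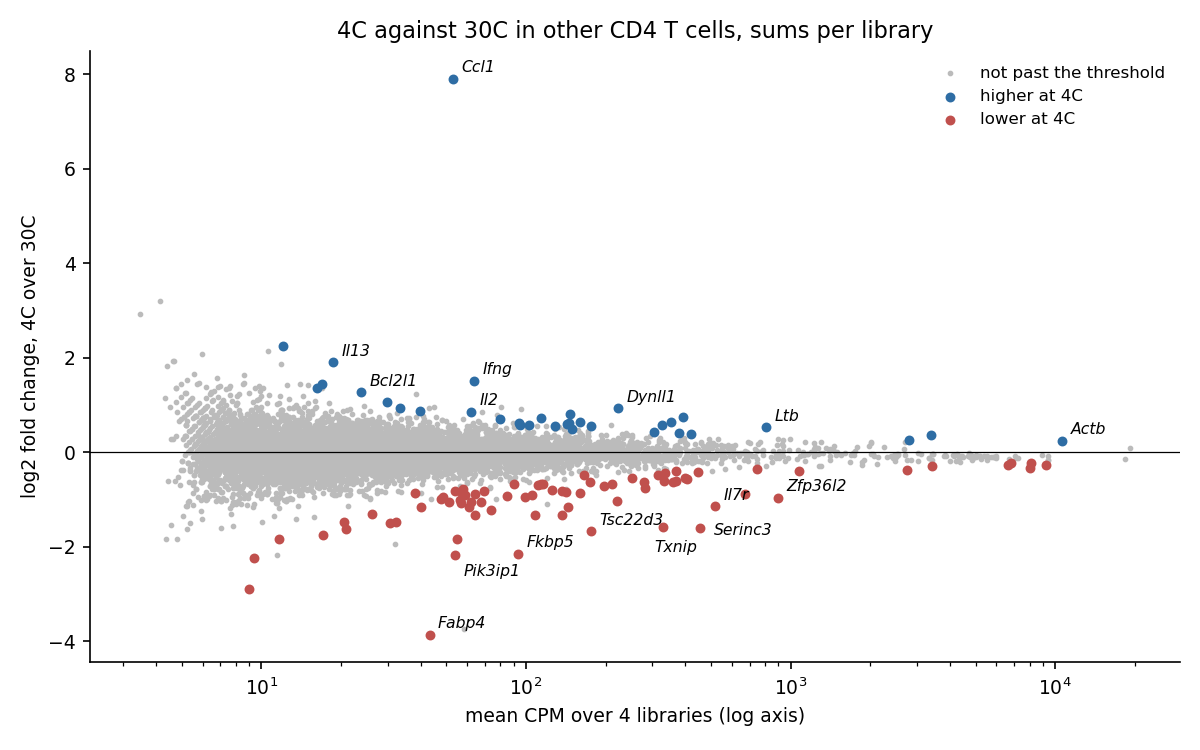
Log2 fold change of 4C over 30C (y axis) against the mean level in CPM on a log axis (x axis) for the 8589 genes tested in other CD4 T cells, with the 34 genes higher at 4C in blue and the 77 lower in red. The 77 lower genes spread from low to high levels, and Ccl1, the point at the top, rested on few cells.

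Of the gene lists, the glucocorticoid receptor list held the most falls. Glucocorticoids bind the receptor encoded by Nr3c1, which enters the nucleus and switches on a set of genes that restrain T cells. Of the 21 genes listed, 19 were tested, and 10 of them were lower and 0 higher at 4C (Tsc22d3, Fkbp5, Ddit4, Dusp1, Klf9, Cxcr4, Il7r, Pik3ip1, Txnip and Bcl2l11), with a median log2 fold change of -0.85 over the 19. The list was chosen with earlier results of these data known, so the count and the median describe it and are no independent support. Several of these genes are also induced by FOXO factors or by energy stress, and no gene set was tested. Among the 10, Bcl2l11 passed in the fewest alternative analyses (9 of 18). Nr3c1 itself was at 94.7, 93.4, 85.3 and 89.7 CPM, with a log2 fold change of -0.10 ± 0.13 (SE, n = 2 against 2, adjusted p = 0.80).

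Fkbp5, a co-chaperone that dampens the glucocorticoid receptor (chr17:28399094-28517527 in GRCm38, as all gene positions here, from GENCODE), was at 161 and 143 CPM in the 30C libraries and at 33.1 and 35.6 CPM in the 4C libraries. Both cold libraries were thus far below both 30C libraries, with a log2 fold change of -2.14 ± 0.15 (SE, adjusted p = 9.9e-07). Over all UMIs, 108 and 105 of the cells at 30C carried an Fkbp5 UMI and 59 and 49 of those at 4C, although the 4C libraries held more of these cells.

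Tsc22d3, also known as GILZ, an inhibitor of inflammatory transcription (chrX:140539528-140600659), was at 305 and 230 CPM at 30C and at 97.4 and 70.7 CPM at 4C, a fall of 1.66 on the log2 scale (SE 0.15, adjusted p = 1.9e-05). Pik3ip1, a surface inhibitor of PI3 kinase (chr11:3330401-3342971), was at 93.2 and 83.6 CPM at 30C and at 20.4 and 18.5 CPM at 4C. The 2 libraries of a temperature lay close together for this gene, and the fall of 2.17 on the log2 scale was among the largest that passed (SE 0.18, adjusted p = 9.1e-06).

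Txnip, which binds thioredoxin and limits glucose uptake (chr3:96557957-96561883), was at 575 and 413 CPM at 30C and at 179 and 150 CPM at 4C (log2 fold change -1.58 ± 0.13, adjusted p = 9.8e-06). Ddit4, an inhibitor of mTOR complex 1, was at 198 and 192 CPM at 30C and at 82.2 and 73.6 CPM at 4C (-1.32 ± 0.12, adjusted p = 1.5e-05). Klf9, a receptor target in many tissues, was at 29.5 and 23.3 CPM at 30C and at 10.4 and 4.88 CPM at 4C (-1.75 ± 0.34, adjusted p = 0.015), and without 4C replicate 1 its fold was -2.42 and not past the threshold. In all 3 genes no cold library reached a 30C library.

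Il7r, the receptor chain through which resting T cells receive IL-7, was at 798 and 629 CPM at 30C and at 308 and 344 CPM at 4C, a fall of 1.13 on the log2 scale (SE 0.10, adjusted p = 1.9e-05). At the fixed depth an Il7r UMI was found in 71.6% and 59.2% of the cells at 30C and in 42.8% and 43.1% at 4C, against 1.26% to 2.71% of B cells. Fewer cells with a UMI thus went with the lower sum (difference of the means -22.5 percentage points, exact permutation p = 0.33, the smallest this design allows). Cxcr4, the receptor for CXCL12, was at 161 and 157 CPM at 30C and at 91.8 and 89.7 CPM at 4C (-0.81 ± 0.12, adjusted p = 0.0017).

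**Figure D3:**
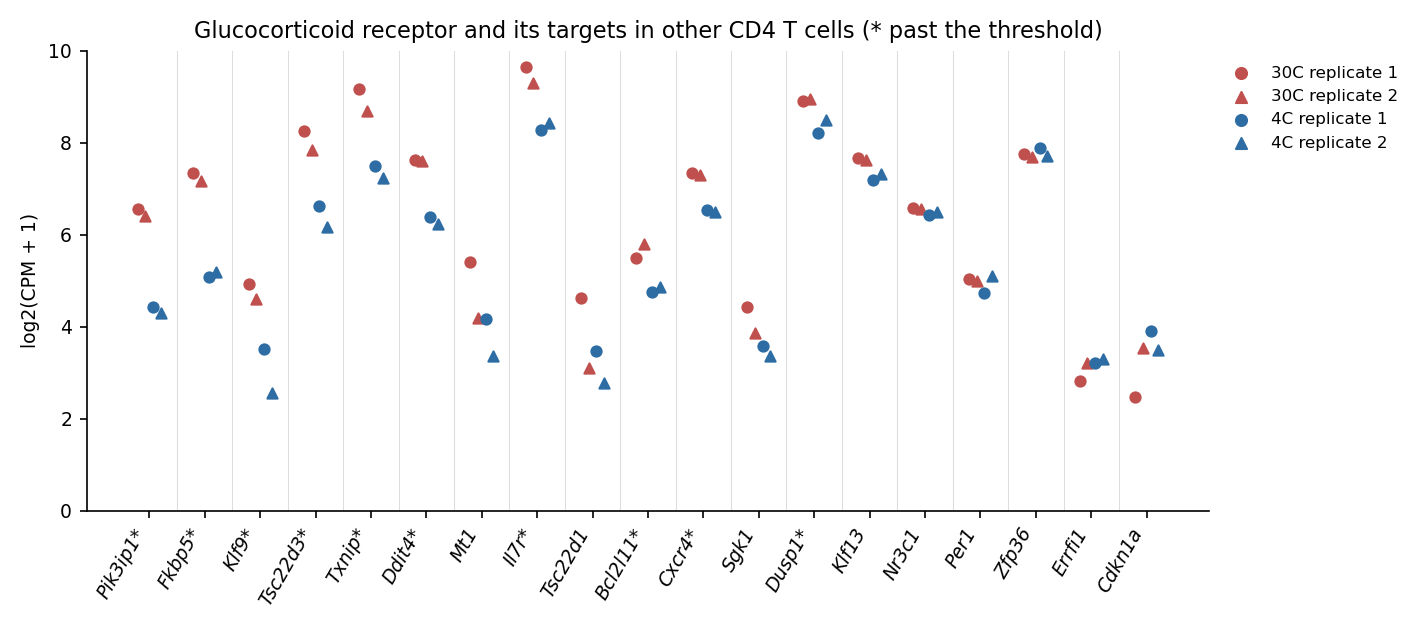
Level of the 19 tested genes of the glucocorticoid receptor list in each library of other CD4 T cells, as log2(CPM + 1), ordered from the largest fall to the largest rise at 4C, with an asterisk on the 10 that passed the threshold. For those 10 both 4C libraries lie below both 30C libraries, while Nr3c1 and Zfp36 differ little.

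Not every gene of the list was lower. Per1, which glucocorticoids and the circadian clock both induce, was at 31.8, 30.9, 25.7 and 33.2 CPM (-0.10 ± 0.21, adjusted p = 0.90). Zfp36, which destabilises cytokine transcripts, was at 214, 204, 235 and 209 CPM (0.09 ± 0.10, adjusted p = 0.79). Sgk1, a kinase induced by corticosteroids, was low, with 27, 18, 25 and 19 UMIs (-0.75 ± 0.33, adjusted p = 0.37).

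The promoters of the list were searched for letters that receptors and other factors bind, because 10 of its 19 tested genes were lower. The windows are from RefSeq on GRCm38.p6, with 250 bases before and 50 after each start, and 19 of the 21 listed genes matched. The full element of the glucocorticoid receptor, AGAACA and its inverted copy TGTTCT with 3 bases between them, is in 0.00913% of the 32851 promoters and, of the 19, in Sgk1, which is not among the 10 that fell. Its relaxed form, GNACA and TGTNC with 3 bases between them, which every match of the full element also meets, is in 0.475% of all promoters and, of the 19, in Sgk1, Mt1 and Txnip, of which Txnip fell. The cAMP response element TGACGTCA is in 1.79% of all promoters and, of the 19, in Dusp1 and Errfi1, of which Dusp1 fell. The E-box CACGTG is in 7.15% and, of the 19, in Fkbp5, Dusp1, Per1, Sgk1 and Tsc22d1, of which Fkbp5 and Dusp1 fell. The D-box TTATGTAA is in 0.938% of all promoters and in none of the 19. Counted by gene, as the 19 are, the 5 elements in this order are in 0.0111%, 0.537%, 2.03%, 8.09% and 1.11% of 27025 genes. Both strands were searched, and receptor sites that lie farther away, in enhancers, are outside these windows. One stretch is given for each of the 3 genes that fell and had a match, on the strand of the gene, with the match in capitals. The first holds the relaxed receptor element and lies at chr3:96557755-96557827 on the plus strand.
Txnip: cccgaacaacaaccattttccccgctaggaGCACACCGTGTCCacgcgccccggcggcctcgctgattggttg
The next holds the cAMP response element and lies at chr17:26508578-26508645 on the minus strand.
Dusp1: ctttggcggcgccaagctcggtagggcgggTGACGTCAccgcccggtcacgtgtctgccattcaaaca
The last holds the E-box and lies at chr17:28486283-28486348 on the minus strand.
Fkbp5: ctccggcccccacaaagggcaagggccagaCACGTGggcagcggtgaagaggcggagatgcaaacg

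Other falls were outside the list. Serinc3, a membrane protein of the serine incorporator family (chr2:163623272-163645131), was at 695 and 669 CPM at 30C and at 203 and 244 CPM at 4C. It had the smallest p of all genes tested, with a log2 fold change of -1.61 ± 0.09 (adjusted p = 2.8e-07). Zfp36l2, which promotes decay of transcripts with AU-rich elements, fell by 0.96 on the log2 scale (SE 0.07, adjusted p = 2.6e-06), while the other 10 tested genes of the mRNA decay list did not pass.

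Of 17 tested apoptosis regulators, 3 were lower and 1 was higher. Bbc3, which encodes the death inducer PUMA (chr7:16308393-16318205), was at 93.9 and 77.5 CPM at 30C and at 27.0 and 20.5 CPM at 4C. Neither cold library came near a 30C library (-1.84 ± 0.19, adjusted p = 6.2e-05). Bcl2l11, the death inducer BIM, fell by 0.85 (SE 0.19, adjusted p = 0.042), and Pdcd4, a repressor of translation, fell by 0.89 (SE 0.10, adjusted p = 8.0e-05). Bcl2l11 passed under 9 of 18 alternatives, with log2 fold changes from -1.25 to -0.69, and Pdcd4 passed under 17. Bcl2l1, which encodes the survival protein BCL-XL, was at 16.7 and 11.3 CPM at 30C and at 33.9 and 33.6 CPM at 4C, a rise of 1.27 (SE 0.25, adjusted p = 0.015). Among the cells with neither an Ikzf2 nor an Il2ra UMI, Bcl2l1 was not past the threshold (0.61). Bcl2 was at 111, 85.8, 67.9 and 82.9 CPM and Mcl1 at 258, 264, 316 and 271 CPM, and neither passed.

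Among 24 cytokine receptor and feedback genes, all tested, Il7r and Ifngr1 fell and none rose. Ifngr1, the ligand-binding chain of the interferon gamma receptor, was at 186 and 215 CPM at 30C and at 82.7 and 96.0 CPM at 4C (-1.17 ± 0.12, adjusted p = 7.7e-05). In the cells with neither an Ikzf2 nor an Il2ra UMI it was not past the threshold (-0.60). Its ligand Ifng rose. Of 14 naive and central memory genes tested, Il7r and Foxp1, a factor that keeps T cells quiescent, fell (Foxp1 -0.67 ± 0.10, adjusted p = 0.0027), and the median of the list was 0.05. Slamf6, a self-binding receptor of T cells, was the 1 gene of 13 tested follicular helper genes that fell (-0.55 ± 0.08, adjusted p = 0.0027).

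Further large falls were in genes with few UMIs. Frmd5, a cytoskeletal adaptor, had 15, 27, 6 and 3 UMIs, Ica1l, a gene of vesicle traffic, had 18, 23, 7 and 7, and Carf, a calcium-responsive transcription factor, had 25, 23, 11 and 11. They fell by 2.90, 2.24 and 1.83 on the log2 scale, with adjusted p between 0.0051 and 0.014. Pclaf, a partner of the replication clamp PCNA, had 46, 37, 15 and 29 UMIs and fell by 1.62 (SE 0.32, adjusted p = 0.016), but was at -2.25 and not past the threshold without 4C replicate 2. Single cells held 22 and 20 of its UMIs in the 30C libraries, and with the richest cell of each library left out its log2 fold change was -1.13 and not past the threshold. Of 16 tested cell cycle genes, Stmn1, a regulator of microtubules, was lower (-1.05 ± 0.17, adjusted p = 0.0032) and the other 15 did not pass, in cells that the rule had already kept free of Top2a. The richest cell held 38.9% and 26.1% of the Stmn1 UMIs in 30C replicates 1 and 2, and 15.7% and 23.5% in 4C replicates 1 and 2.

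Among the 34 genes that rose were 5 cytokine genes. Of 24 cytokines and TNF family ligands listed, 18 had enough UMIs to be tested. Of these, 5 were higher and 0 lower at 4C (Ifng, Il13, Il2, Tnf and Ltb). Among the 18, 16 had a positive log2 fold change, and their median was 0.62, beside -0.01 over all genes tested. This list too was chosen with earlier results of these data known. Among those that did not pass was Il21, a helper cytokine for B cells, at 21.2, 39.9, 59.2 and 59.5 CPM (0.95 ± 0.23, adjusted p = 0.054), and another was Tnfsf11, which encodes RANKL, at 48.5, 39.1, 70.9 and 72.6 CPM (0.71 ± 0.17, adjusted p = 0.054).

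Ifng, the main macrophage-activating cytokine of T cells (chr10:118441046-118445892), was at 19.7 and 45.9 CPM at 30C and at 70.9 and 118 CPM at 4C. Both cold libraries were higher, with a log2 fold change of 1.52 ± 0.29 (adjusted p = 0.013). The fold was 2.25 without 30C replicate 2, 1.03 without 30C replicate 1, and 1.85 and 1.11, not past the threshold, without 4C replicates 1 and 2. The UMIs came from 12 and 16 cells at 30C and from 46 and 60 cells at 4C, and the richest cell held between 7.41% and 31.1% of a library's Ifng UMIs. At the fixed depth 2.99%, 4.85%, 9.0% and 12.8% of the cells had an Ifng UMI, against at most 0.217% of B cells. Tbx21 and Cxcr3, the type 1 factor and chemokine receptor, did not pass (0.44 ± 0.38 and -0.00 ± 0.13).

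Il2, the T cell growth factor (chr3:37120523-37125959), was at 52.3 and 36.1 CPM at 30C and at 87.0 and 73.1 CPM at 4C (0.86 ± 0.19, adjusted p = 0.030). It was found in 41 and 27 cells at 30C and in 86 and 70 cells at 4C. Tnf, an inflammatory cytokine, was at 72.7, 75.3, 108 and 121 CPM (0.63 ± 0.13, adjusted p = 0.029). Ltb, the lymphotoxin chain that organises lymphoid tissue, was broadly present, at 614, 704, 966 and 945 CPM (0.54 ± 0.08, adjusted p = 0.0018). In each of these 3 genes both cold libraries were above both 30C libraries.

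Some further values came from few cells. Il13, a type 2 cytokine, had 12, 9, 97 and 34 UMIs, which came from 7, 4, 12 and 5 cells, and 1 cell held 85.3% of those in 4C replicate 2 (1.90 ± 0.44, adjusted p = 0.049). Ccl1, a chemokine for CCR8, had 1, 0, 461 and 23 UMIs, of which 379 were in 1 cell of 4C replicate 1 (7.91 ± 1.68, adjusted p = 0.028). Fscn1, an actin bundler that is on the dendritic cell list, had 10, 1, 56 and 32 UMIs in 2, 1, 4 and 3 cells (2.26 ± 0.51, adjusted p = 0.043). The Fscn1 fold was 4.62 without 30C replicate 1, 1.41 without 30C replicate 2 and 0.03 without cells of other T cell types, and passed under 7 of 15 alternatives. Without 4C replicate 1, Ccl1 (4.63) and Il13 (1.06) were not past the threshold, and without 30C replicate 1 Ccl1 was at 10.68. With the richest cell of each gene and library left out, an alternative chosen after seeing the data, Ccl1 and Fscn1 had too few UMIs to be tested and Il13 was not past the threshold (1.71), while Ifng, Il2, Tnf and Ltb stayed past it. Il3, Il5, Il17a, Il22, Csf2 and Lif had too few UMIs to be tested. Among the cells with neither an Ikzf2 nor an Il2ra UMI, Ifng, Il2 and Tnf had log2 fold changes of 1.41, 0.41 and 0.56 and were not past the threshold, whereas Ltb was.

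**Figure D4:**
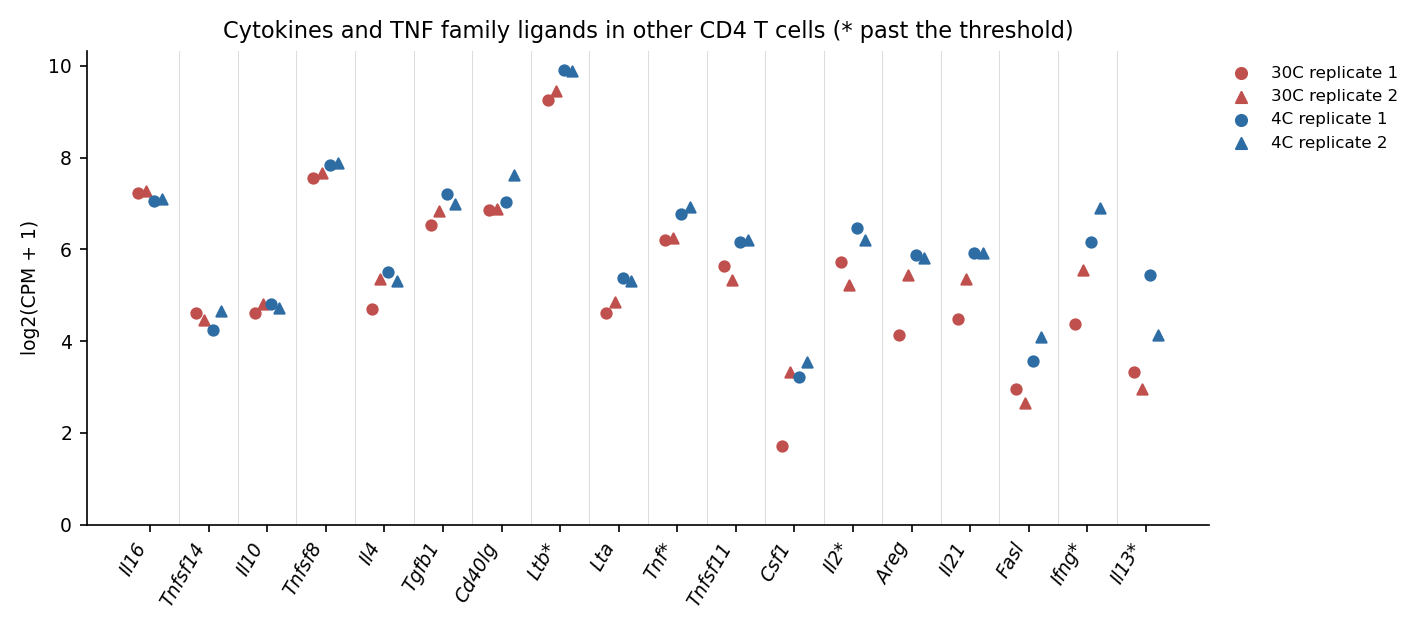
Level of the 18 tested cytokines and TNF family ligands in each library of other CD4 T cells, as log2(CPM + 1), ordered by log2 fold change, with an asterisk on the 5 that passed the threshold. Both 4C libraries lie above both 30C libraries for Ltb, Tnf, Il2, Ifng and Il13, and Ifng also differs between the 2 libraries of each temperature.

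Further rises were outside the cytokine list. Dynll1, the light chain of dynein (chr5:115297110-115300999), was at 145 and 162 CPM at 30C and at 308 and 277 CPM at 4C. It had the smallest adjusted p among the rises (0.93 ± 0.11, adjusted p = 0.00016). Cxcr6, a receptor of tissue-resident T cells, was at 96.2, 76.0, 140 and 144 CPM (0.72 ± 0.13, adjusted p = 0.010), and Itgb1, the beta-1 integrin, at 284, 268, 368 and 488 CPM (0.63 ± 0.12, adjusted p = 0.011). These were the 2 of 16 tested effector memory and residency genes that passed, with a list median of 0.06.

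Of 20 tested immediate early genes, Nr4a1, an early target of T cell receptor signalling, was higher (63.6, 57.2, 87.0 and 110 CPM, 0.70 ± 0.16, adjusted p = 0.042). Nr4a1 passed under 9 of 18 alternatives, with log2 fold changes from 0.53 to 0.998. Dusp1 and Dusp2, phosphatases that switch off MAP kinases, were lower. Dusp1 was at 477 and 495 CPM at 30C and at 297 and 359 CPM at 4C (-0.57 ± 0.10, adjusted p = 0.0056), and Dusp2 at 447 and 358 CPM and at 278 and 248 CPM (-0.61 ± 0.11, adjusted p = 0.0079). Fos and Junb were at 138, 135, 117 and 125 CPM and at 1211, 1195, 1419 and 1380 CPM, and neither passed. The list as a whole thus did not move one way, with a median of 0.20.

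Of 15 tested heat shock and cold-inducible genes, Hspd1 and Dnaja1, both chaperones, rose (0.59 ± 0.13 and 0.42 ± 0.09, adjusted p = 0.042 and 0.027). Hspd1 passed under 9 of 18 alternatives, with a lowest log2 fold change of 0.22, and Dnaja1 passed under 10, with a lowest of 0.33. Cirbp, the cold-inducible RNA-binding protein, and Srsf5, a splicing factor, fell. Cirbp was at 309 and 282 CPM at 30C and at 151 and 138 CPM at 4C (-1.03 ± 0.10, adjusted p = 3.8e-05). Its relative Rbm3 was at 1403, 1403, 1224 and 1069 CPM (-0.29 ± 0.07, adjusted p = 0.070).

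The remaining rises among the largest were small genes by count. Tubb2a, a tubulin, had 10, 14, 68 and 41 UMIs (1.45 ± 0.32). Pim2, a survival kinase, had 14, 10, 48 and 53 (1.35 ± 0.31), and Gfpt1, the entry enzyme of the hexosamine pathway, had 29, 22, 93 and 83 (1.07 ± 0.22). Plk3, a stress-responsive kinase, and Lyrm2, a mitochondrial assembly factor, rose by 0.93 and 0.88. All 5 had adjusted p values between 0.021 and 0.044, and Pim2 was at 0.67 and not past the threshold at the fixed depth. The genes called lower included mt-Nd5, mt-Co1, mt-Atp6, mt-Co2 and mt-Co3, with log2 fold changes of -0.39, -0.32, -0.28, -0.26 and -0.23. The rule left out cells above a limit on mitochondrial UMIs, so these folds describe only the cells under it. They are no result about mitochondrial RNA before that limit. The limits on genes and mitochondrial UMIs kept 75.4% and 78.3% of the barcodes at 30C, and 84.9% and 80.8% at 4C. The lower median mitochondrial share at 4C, given above, measures the same UMIs and is no separate support. Among the most abundant genes outside ribosomal and mitochondrial ones, Actb, Cd52 and H2-K1 were higher by 0.25, 0.37 and 0.25, and Ubb, which encodes ubiquitin, was lower with a log2 fold change of -0.38. H2-K1 shares sequence with other class I genes, so its count is uncertain.

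Cholinergic and adrenergic genes did not pass. Chat was at 102, 111, 104 and 110 CPM, and its log2 fold change was -0.00 ± 0.12 with a 95% interval from -0.27 to 0.26 (adjusted p = 1.00). At the fixed depth 22.4%, 27.2%, 23.5% and 26.7% of the cells had a Chat UMI, beside 29.5% to 35.6% of Foxp3 cells and 11.9% to 19.7% of B cells, which were sorted for the same reporter and give no background free of the gene. None of the 15 tested genes of the beta-adrenergic and cAMP list and none of the 6 tested acetylcholine genes passed, beside 1.29% of all genes tested.

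No gene passed in 9 of the lists for T cell and metabolic functions. These were the T cell receptor complex and proximal signalling (18 tested, median -0.01), regulatory T cell genes (12 tested, median -0.14), type 17 genes (6, median -0.24), inhibitory receptors (14, median -0.21), NF-kB subunits and feedback (16, median 0.12), circadian clock genes (12, median -0.19), and the beta-adrenergic and acetylcholine lists. The same held for glycolysis (15, median -0.01). Over all genes tested 1.29% passed. Lists of 6 to 18 genes with none past the threshold are near that share and give no result about these functions. Trac and Cd28 had log2 fold changes of -0.04 and -0.10. The rule chose every cell by its UMIs of Cd4, Cd3d, Cd3e and Cd3g, so those members of the receptor list and their folds are no result. Of 19 tested interferon-stimulated genes Iigp1 was lower and the other 18 did not pass (list median 0.01), and of 17 tested FOXO targets Il7r, Pik3ip1 and Ddit4 were lower (median -0.00). Among 9 tested type 2 genes Il13 was higher, and among 16 genes of egress and adhesion Itgb1 was higher and Arhgap15, which regulates Rac, was lower.

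Markers of other cell types were present, those of B cells in most of the cells. The 12 B cell markers summed to 2323 and 1342 CPM at 30C and to 1241 and 1430 CPM at 4C, led by Igkc, which was found in 89.4%, 91.2%, 81.3% and 94.3% of the cells over all UMIs, with Cd79a at 0 by the rule. Of the 8 tested, Ighm was lower at 4C (-0.41 ± 0.08, adjusted p = 0.018) and none was higher. The 12 macrophage markers summed to 605 and 283 CPM at 30C and to 319 and 257 CPM at 4C, led by Ctss, which T cells also express, with C1qa at 0 by the rule and none of 5 tested past the threshold. The 8 dendritic cell markers summed to 27.3, 2.26, 37.8 and 21.0 CPM, led by Fscn1. The 11 NK cell markers summed to 117, 125, 146 and 236 CPM, led by Nkg7, with Eomes at 0 by the rule, Ncr1 and Klra1 at 0 and none past the threshold. The 8 adipocyte markers summed to 140, 24.1, 8.70 and 5.36 CPM, nearly all of it Fabp4, with Plin1, Lep, Retn, Ucp1 and Cidec at 0.

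The 8 plasma cell markers summed to 356, 342, 153 and 316 CPM, led by Igha, which was lower at 4C (-0.95 ± 0.21, adjusted p = 0.041). The 11 ILC2 markers summed to 404, 471, 410 and 390 CPM, led by Rora, which T cells also express, and Il13 was the 1 of 8 tested that was higher. CD8 T cell, gamma-delta T cell, NKT cell, stromal, endothelial, mast cell and red blood cell markers each summed to between 0 and 82.6 CPM in a library. The part of such RNA in the results was not tested gene by gene.

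A few cells carried much of that RNA. In 30C replicate 1, 1 cell held 349 UMIs of the macrophage markers and another held 173 of the adipocyte markers, which were all Fabp4. Fabp4, the fatty acid binding protein of adipocytes, macrophages and endothelium, thus had 184, 30, 14 and 10 UMIs, with 173 and 28 in the richest cells of the 30C libraries, and its fall (-3.86 ± 0.64, adjusted p = 0.0047) rested on 2 cells. It was at -2.02 without 30C replicate 1. Without the 4, 1, 4 and 2 cells that held at least 50 UMIs of B cell, macrophage, dendritic cell and adipocyte markers, an alternative chosen after seeing the data, 169 genes passed (59 higher and 110 lower), among them 108 of the 111. The genes lost were Fabp4, Fscn1 and Il13.

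Foxp3 cells of the same libraries gave a similar number of calls, 124 of 8913 genes (1.39%, 46 higher or 0.516% and 78 lower or 0.875%), and Cxcr5 cells, of which there were only 76, 81, 112 and 116, gave 13 of 6502 (0.2%, 1 higher or 0.0154% and 12 lower or 0.185%). These groups share mice and libraries with other CD4 T cells but no cells. Fkbp5 fell in Foxp3 cells by 1.85 and in Cxcr5 cells by 1.78 on the log2 scale, and Tsc22d3 fell by 1.55 and by 1.80. Il7r fell by 1.46 and by 1.73, more than the 1.13 of other CD4 T cells, but the differences of the temperature effects, 0.34 ± 0.10 and 0.61 ± 0.19, were not past the threshold (adjusted p = 0.33 and 0.94). Dynll1 rose by 1.16 and by 0.93 in the same groups.

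The interaction of cell group and temperature, tested with the library as a factor, passed for 15 of 9275 genes against Foxp3 cells (0.162%, 5 of them higher or 0.0539% and 10 lower or 0.108%) and for 1 of 8261 against Cxcr5 cells (0.0121%). Against Foxp3 cells these included both MAP kinase phosphatases. In CPM of each group's own sum, without TMM scaling, Dusp2 was at 434, 349, 278 and 252 in other CD4 T cells and at 248, 231, 271 and 258 in Foxp3 cells. It fell in the former and had a log2 fold change of 0.11 ± 0.08 in the latter, with a difference of -0.72 ± 0.12 (adjusted p = 0.0091) that passed the threshold under all 6 alternatives. Dusp1 was at 463, 484, 298 and 364 CPM against 502.5, 624, 503.6 and 632 CPM, with a difference of -0.55 ± 0.10 (adjusted p = 0.027) that passed under 4 of the 6.

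The temperature effect on Bbc3 differed from that in Foxp3 cells, and its difference from Cxcr5 cells did not pass the threshold. It was at 91.3, 75.7, 27.0 and 20.8 CPM in these and at 59.5, 65.2, 42.6 and 41.7 in Foxp3 cells, where its log2 fold change of -0.59 ± 0.14 did not pass (adjusted p = 0.066). The difference was -1.25 ± 0.23 (adjusted p = 0.027) and passed under 5 of the 6 alternatives. In Cxcr5 cells Bbc3 fell by 2.52 on the log2 scale, and the difference from them was 0.70 ± 0.52 (adjusted p = 0.97). Iigp1, an interferon-induced GTPase, was at 61.9, 63.2, 34.0 and 33.1 CPM against 52.2, 38.2, 57.4 and 81.1 in Foxp3 cells, with a difference of -1.50 ± 0.24 (adjusted p = 0.0091) that passed under 5 of the 6. Cd69, an early activation and residency marker, was at 307, 390, 238 and 317 against 243, 207, 255 and 347 (-0.75 ± 0.14, adjusted p = 0.027), where the temperatures overlapped in other CD4 T cells. Its difference passed under 4 of the 6, and without 30C replicate 2 it was -0.48 and not past the threshold.

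Npm3, a nucleolar chaperone, fell in Foxp3 cells (-1.19 ± 0.12) from 176 and 160 to 81.3 and 69.5 CPM, and was at 113, 109, 89.4 and 100 in other CD4 T cells (difference 0.91 ± 0.17, adjusted p = 0.027). Bcl2a1d, a survival gene with near-identical copies that make its count uncertain, was at 205, 182, 263 and 233 against 118, 142, 96.4 and 75.1, with a difference of 0.93 ± 0.16 (adjusted p = 0.014). For Ifng the difference from Foxp3 cells was 1.01 ± 0.44 (adjusted p = 0.63) and for Bcl2l1 1.10 ± 0.30 (adjusted p = 0.25), so neither rise was shown to differ between the groups. The number of such genes varied with the libraries, from 32 to 78 when 1 library was left out, and 4 genes passed at the fixed depth.

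**Figure D5:**
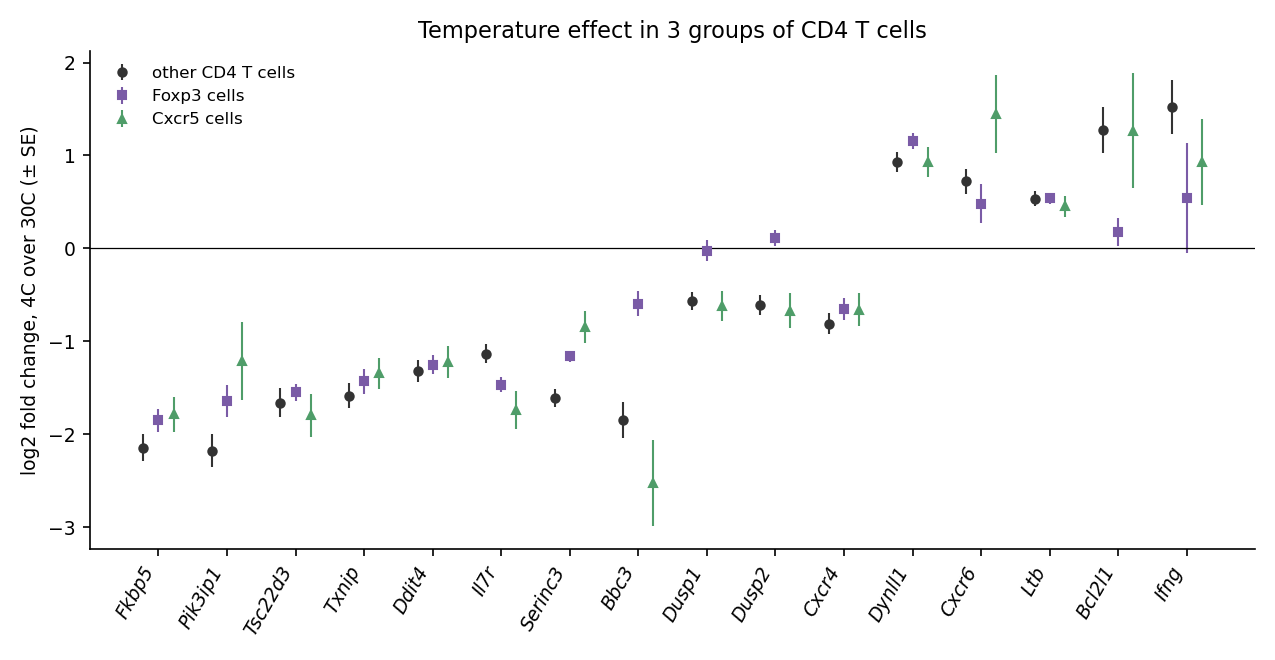
Log2 fold change of 4C over 30C (y axis) for 16 genes in other CD4 T cells, Foxp3 cells and Cxcr5 cells, each point an edgeR estimate from 2 libraries a temperature with its standard error as a bar. Fkbp5, Tsc22d3, Txnip and Ddit4 lie below 0 in all 3 groups, while Dusp1 and Dusp2 lie near 0 in Foxp3 cells alone and Bbc3 is least negative there.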

How the data were processed

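Single-cell RNA of sorted ChAT-eGFP+ cells was captured with the 10x Genomics 3' v3 chemistry in 4 libraries. The authors deposited UMI counts per gene and barcode, not normalised, in 1 filtered matrix per library, aligned to mm10. The submitters' processing notes name Cell Ranger 3.1.0, STAR (no version) and Seurat 4.2.0, and the study's methods name another Cell Ranger release. The 4 matrices held 6883, 6881, 6272 and 6618 barcodes and 76058112, 84317319, 80973104 and 84468931 UMIs (30C replicates 1 and 2, then 4C replicates 1 and 2), and the limits on genes and mitochondrial UMIs kept 5190, 5388, 5326 and 5345 cells. No other column of per-sample values was left unused.

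UMI counts of the chosen cells were summed per library. Genes were filtered with filterByExpr, scaled with TMM and tested with edgeR 4.0.16 (quasi-likelihood F-test, R 4.3.3) and p-values were adjusted by Benjamini-Hochberg over every gene that passed the filter. P-values measure the spread between 2 libraries per temperature, each a pool of mice. Interactions were fitted with the library as a factor, over the sums of 2 cell groups. Percentages of cells with a UMI were computed in Python 3.11.15 after reducing each cell to 3200 UMIs, and shares were compared with exact permutation tests in scipy 1.17.1. Doublets were marked with Scrublet in scanpy 1.11.5 and kept, apart from an alternative without them, and 1, 2, 2 and 1 of the chosen cells were marked. The scripts were tested on simulated data.

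The cells, the gene lists and the tests were chosen with earlier results of these data known. Genes named are the 12 largest rises and falls by log2 fold change that passed the threshold, did not overlap and had at least 50 UMIs, genes of the lists, the genes of the rule, Chat, the 10 smallest p in each interaction and the 15 most abundant genes. Immunoglobulin genes were named only as markers, and some results that this rule covers are not reported here. Alternatives comprised DESeq2 1.42.0, other limits, other choices of cells, a replicate block and each library left out. Leaving out the richest cell per gene, or the cells rich in markers of other cell types, was chosen after seeing the data. Promoters and gene positions came from RefSeq and GENCODE on GRCm38.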

Additional observations from a re-analysis of the deposited data

Results flagged for a closer look

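The temperature effect differed from that of Foxp3 cells, by the interaction test, in the 10 genes with the smallest p. The differences, as log2 fold change in other CD4 T cells minus that in Foxp3 cells, were -1.50 for Iigp1, -0.72 for Dusp2, -0.55 for Dusp1, -1.25 for Bbc3, -0.75 for Cd69, 0.93 for Bcl2a1d and 0.91 for Npm3. They were -5.28 for Lyz2, 8.46 for Ccl1 and -3.03 for Ifit3, an interferon-induced gene. For Lyz2, a lysozyme of macrophages, 271 of 283 UMIs in 30C replicate 1 lay in 1 cell, and without that library the difference was -1.57 and not past the threshold. Ccl1 (4.27) and Ifit3 (-2.45) were not past it without that library either, and Cd69 was not past it without 30C replicate 2. At the fixed depth Ccl1 could not be tested, and Ifit3, Iigp1, Bcl2a1d, Dusp1, Bbc3 and Cd69 were not past the threshold. Without 4C replicate 2, Dusp1 and Npm3 were not past it. For Ifit3 the UMIs in other CD4 T cells were 120, 15, 40 and 18, and the temperatures overlapped. Against Cxcr5 cells the difference was -5.10 for Fabp4, which rested on 2 cells.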

How the results depend on the processing

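The number of genes past the threshold, 111, was 56 with DESeq2 (11 higher, 45 lower), 117 without TMM scaling (52 and 65), 49 with at least 2 Cd4 UMIs (7 and 42), 57 without cells that carried Ikzf2 or Il2ra (14 and 43), 55 at the fixed depth (10 and 45) and 169 without the cells rich in markers of other types, and it ranged from 5 to 210 when 1 library was left out. Serinc3, Pik3ip1, Fkbp5 and Zfp36l2 were past the threshold under all 18 alternatives. Ddit4 and Pdcd4 passed in 17, Ltb and Dynll1 in 16, Ifng in 13 and Tnf and Il2 in 11. With the replicate number as a block, 303 genes passed (128 higher, 175 lower), all 111 among them. The labels give the numbers no meaning, the deviations of same-numbered libraries correlated at 0.129 over 8589 genes, and the samples share only a number. Fabp4 was at 0.10 without the cells rich in other markers. Chat, at -0.00, was at 0.012 with DESeq2, 0.048 without TMM, 0.026 without the count filter, 0.00038 with the block, 0.018 with no upper limit on genes, 0.25 without Ikzf2 or Il2ra cells, 0.075 without cells of other T cell types and 0.020 without the richest cells, and ranged from -0.061 to 0.064 with a library left out. Its lowest value was -0.148, at the fixed depth, and all were within its interval. The difference in the share of cells, 1.68 points, was 1.19 with at least 2 Cd4 UMIs and 0.81 without Ikzf2 or Il2ra cells. Over all UMIs the difference in the share of cells with Ifng was 10.8 points (7.01 at the fixed depth) and with Chat 6.98 (0.318 at the fixed depth, and -2.08 to 2.72 with a library left out). Interactions passed for 29 genes against Foxp3 cells and 14 against Cxcr5 cells without the count filter, and for 4 against Foxp3 cells at the fixed depth. With a library left out they ranged from 32 to 78 and from 0 to 12. Apart from the alternatives' own construction (fewer cells, UMIs or libraries), the cause of these shifts was not tested.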
